A study of Pinus armandii with 6 samples.

Results

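Genes of glutathione and ascorbate metabolism were examined in seed kernels of Pinus armandii, a white pine of China with edible seeds. They were 117 unigenes (assembled transcripts) of 65117 in all. Each carries the KEGG pathway label for glutathione (ko00480) or for ascorbate and aldarate (ko00053), none of the labels ko00030, ko00040, ko00071, ko04146 and ko00630, and a best database hit in Picea, Pinus or Taxus. Of these, 65 had the glutathione label alone, 43 the ascorbate label alone and 9 had both. Enzyme roles were read from the KEGG orthologue identifiers, of which the members had 25 kinds. The hit itself named no function for 77 members. A best hit was shared with another member in 54 cases, so one gene's reads may be spread over several unigenes.

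Plant cells hold a pair of abundant soluble antioxidants, the tripeptide glutathione and ascorbate (vitamin C). In the ascorbate-glutathione cycle, ascorbate peroxidase spends ascorbate to destroy hydrogen peroxide, and monodehydroascorbate reductase, dehydroascorbate reductase and glutathione reductase restore the spent molecules. Glutathione transferases attach glutathione to reactive or toxic compounds. In seeds this system is known for its part in surviving drying and rehydration.

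The kernels came from cones taken at the end of September, with 3 libraries, or at the end of August, also with 3. The labels give no genotype, treatment or tree age that sets the months apart, and they do not say what was pooled for a library. The 3 libraries of each month are named biological replicates, but whether they came from separate trees is not said. The p-values reflect only how these libraries vary. A pine kernel holds an embryo inside the megagametophyte, its storage tissue, and in whole kernels fewer cells of a type and less RNA per cell cannot be told apart.

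Total counts per library ran from 12849649 to 17379628. The kernel label was checked on 33 unigenes for storage proteins, oleosins and late embryogenesis proteins, which summed to 5724 to 6006 CPM (counts scaled to library size) in September and 7981 to 8699 CPM in August. By the test described below, 28 were tested, 14 were higher in September, 9 were lower and 5 did not pass. That is 82.1% changed, against 67.8% of all tested unigenes. Their median log2 fold change of September over August was 0.53, so the sum and the typical unigene went in opposite directions. Of 17 unigenes for laccases and proanthocyanidin reductases, taken as seed coat markers, 5 had no count in September and 1 had none in August. Their sum was 37.6 to 124 CPM in September and 53.5 to 68.1 CPM in August. Of the 3 tested, 1 was higher in September and none was lower (33.3% changed). For 5 unigenes of photosynthetic cells the sum was 81.0 to 105 CPM in September and 67.2 to 104 CPM in August. Of the 3 tested, 2 were higher in September and none was lower (66.7% changed, median log2 fold change 2.12). For 241 unigenes with a best hit in a list of protist genera the sum was 47.3 to 66.0 CPM in September and 98.1 to 199 CPM in August. Of the 38 tested, 9 were higher in September and 26 were lower (92.1% changed, against 67.8% of all tested unigenes). The list held no fungal genus. The part of these differences in the results was not tested. The second August library stood apart. Of 38281 unigenes with at least 10 counts in all, 1174 had over 90% of their summed CPM in that library, against 6 to 32 in each of the other 5. Of 92 such unigenes with either pathway label that are no members 14 did so, and of 107 such members none did in any library.

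Enough counts for a test were present in 90 of the 117 members. At an adjusted p under 0.05 (edgeR, quasi-likelihood, Benjamini-Hochberg over every tested unigene), 35 members were higher in September, 23 were lower and 32 did not pass. The members that passed made up 64.4% of those tested, against 67.8% of all 23216 tested unigenes, so the share of changed genes was near the background. By direction, 38.9% of the tested members were higher (35.4% of all tested unigenes) and 25.6% were lower (32.5% of all). All 3 September libraries lay above all 3 August libraries for 39 of the 90 tested members (37.8% of all tested unigenes) and below them for 23 of the 90 (35.0% of all). The months did not overlap in 72.9% of all tested unigenes. Of the 90 tested members, 36 passed and changed by at least 2-fold (36.7% of all tested unigenes did) and 18 by at least 4-fold (19.7% of all). Without the second August library 36 members were higher and 24 lower. The median log2 fold change was 0.16 over tested members and 0.03 over all tested unigenes. The 117 members together summed to 4980 ± 70.9 CPM in September and 4941 ± 254 CPM in August (SD, n = 3 each), so no net gain or loss in the whole set was measured beyond the spread between libraries. The remaining 27 members had at most 80 counts over the 6 libraries and were not tested.

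**Figure D1:**
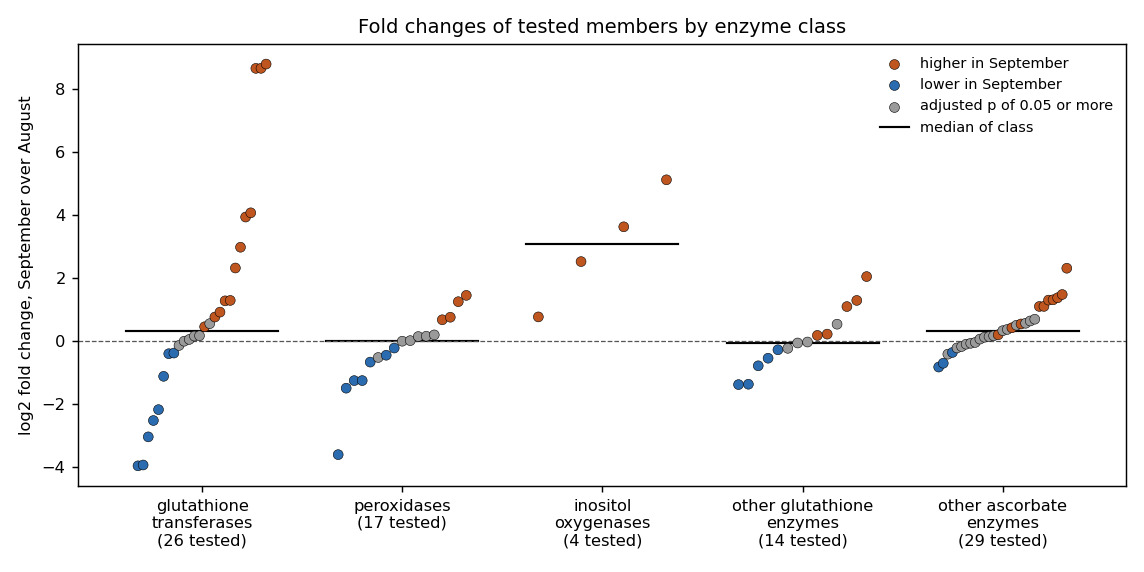
Log2 fold change of September over August (vertical axis) for the 90 tested members, grouped by enzyme class, with 1 point per unigene and a line at the median of each class. All 4 inositol oxygenases lie above 0, whereas the other classes spread to both sides. The 3 highest glutathione transferases had 0 to 3 August counts, so their fitted values are no measured size.

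The largest changes were among the glutathione transferases. Of 35 such unigenes 26 were tested, and 12 were higher, 8 lower and 6 did not pass. The changed share was 76.9%, against 67.8% of all tested unigenes, and 9 rose and 6 fell by at least 2-fold among those that passed. Their summed level was 534 ± 67.1 CPM in September and 559 ± 90.2 CPM in August (SD, n = 3 each), a difference within the spread between libraries. Its direction turned with the unit, the log2 ratio of the sums being -0.07 in CPM and 0.09 in FPKM.

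A group of tau-class transferases, a plant class that detoxifies foreign and reactive compounds, was nearly silent in August. GSTU19 (Unigene0025136) had 26.1, 23.7 and 40.9 CPM in the September libraries, against 0, 0 and 0.191 CPM in the August libraries. Its counts summed to 1313 in September and 3 in August, a ratio of 443 with an exact 95% counting interval of 151 to 2151 (adjusted p = 3.3e-07). GSTU20 (Unigene0025138) had 10.1, 8.47 and 18.5 CPM in September and 0.0624, 0 and 0 CPM in August. Its sums were 530 counts in September and 1 in August, a ratio of 536 with a counting interval of 95.9 to 21225 (adjusted p = 1.7e-06). A further GSTU19 unigene (Unigene0025137), which shares its best hit, a Picea mariana transferase, with Unigene0025136, had 5.04, 2.82 and 3.23 CPM in September and 0 in every August library. It was at least 55.3-fold higher in September, taking 3 counts over the August libraries as the floor (adjusted p = 2.6e-05). In all 3 unigenes every September library lay far above every August library. Unlike these, the most abundant transferase, another tau-class unigene named GSTU19 (Unigene0022265, mean 166 FPKM), did not pass. It had 160, 292 and 234 CPM in September and 181, 322 and 257 CPM in August (log2 fold change -0.14, SE 0.22, adjusted p = 0.59). This unigene alone held 44.1% of the summed transferase level, and its months overlapped, with the lowest value in a September library and the highest in an August library. Its fold change was negative over all libraries and turned positive without the first September library (0.06) or the second August library (0.05).

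The phi class, the other large plant class, moved both ways. GSTF10 (Unigene0023925) had 14.8, 14.8 and 17.3 CPM in September and 1.68, 0.667 and 0.381 CPM in August (log2 fold change 4.07, SE 0.35, adjusted p = 5.1e-06). Without the first August library its log2 fold change was 4.88. GSTF9 (Unigene0071990) had 45.7, 35.9 and 40.9 CPM in September and 15.8, 22.2 and 12.4 CPM in August (log2 fold change 1.29, SE 0.18, adjusted p = 0.00015). A second unigene named GSTF9 (Unigene0000197), with its own best hit, went the other way, at 43.4, 72.2 and 51.4 CPM in September and 106, 141 and 118 CPM in August (log2 fold change -1.13, SE 0.17, adjusted p = 0.00021). The months did not overlap for any of these phi-class unigenes. By its counts and FPKM, Unigene0000197 is 6373 bases long, against a median of 968 over the transferase unigenes. Whether all its reads come from a transferase was not tested. The summed level of the 5 phi-class unigenes, by symbol or hit, had a September over August ratio of 0.81 in CPM and 1.79 in FPKM.

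Falls among the transferases were also large. GSTU22 (Unigene0062963) had 1.16, 1.67 and 1.18 CPM in September and 10.3, 14.9 and 8.64 CPM in August (log2 fold change -3.05, SE 0.27, adjusted p = 6.7e-06). It shares its best hit with Unigene0022265. PRP1 (Unigene0038496), a tau-class transferase by its hit, had 2.18, 4.55 and 1.89 CPM in September and 11.9, 12.8 and 15.5 CPM in August (log2 fold change -2.18, SE 0.29, adjusted p = 9.4e-05). A second PRP1 (Unigene0038497), named here after its values were seen, fell by 3.97 on the log2 scale (SE 0.36, adjusted p = 7.7e-06), with 0.885, 0.576 and 0.158 CPM in September and 8.61, 8.38 and 9.40 CPM in August. In each of these the September libraries lay below all August libraries. Smaller falls were measured for the membrane-type transferase Mgst3 (Unigene0042059), at 26.5 ± 1.98 CPM in September and 35.1 ± 3.22 CPM in August (adjusted p = 0.0046), and for the lambda-class GSTL3 (Unigene0001448), at 24.4 ± 2.61 CPM in September and 31.9 ± 4.11 CPM in August (SD, n = 3 each). The GSTL3 call (adjusted p = 0.016) was lost without the second September library (0.057) or the third (0.061). GSTU18 (Unigene0060178), also named after its values were seen, rose with 16.5, 6.57 and 6.23 CPM in September and 1.25, 1.04 and 1.40 CPM in August. Its log2 fold change of 2.98 became 2.37 without the first September library, which held the highest value.

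**Figure D2:**
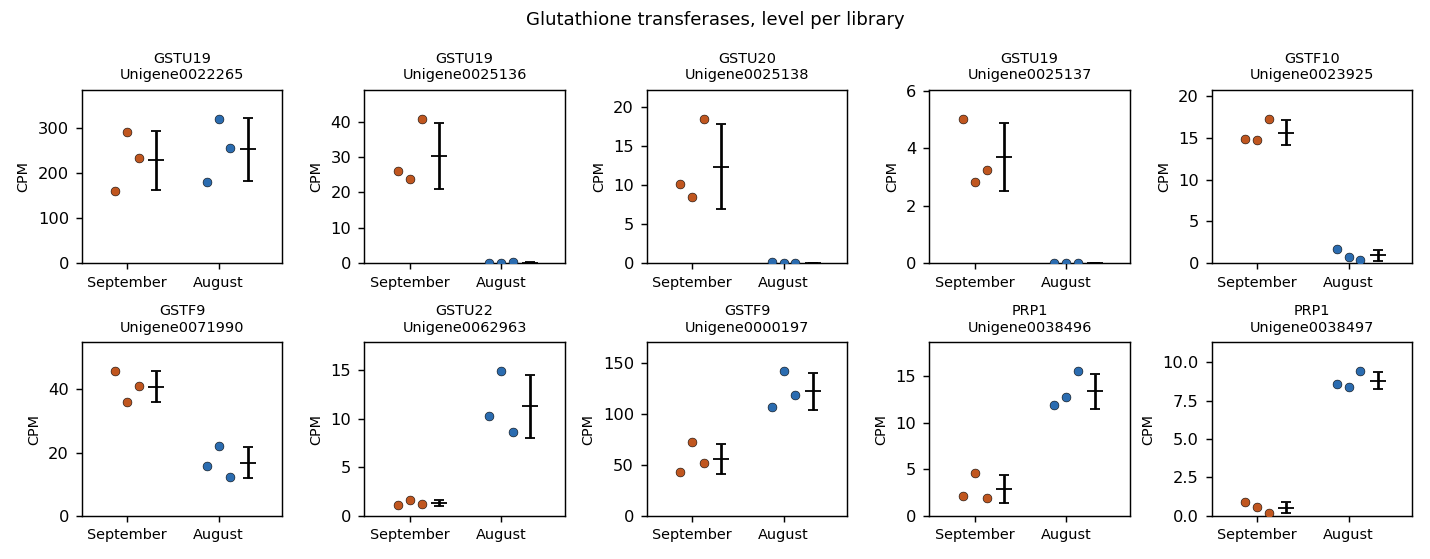
Level in CPM (vertical axes, each from 0) of 10 glutathione transferase unigenes in the 3 September libraries (left) and the 3 August libraries (right). Points are libraries, and the bar beside them is the mean with the SD. The 3 tau-class unigenes Unigene0025136, Unigene0025138 and Unigene0025137 sit at or near 0 in August, whereas Unigene0022265 overlaps between months, at 160 to 292 CPM in September and 181 to 322 CPM in August.

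All member inositol oxygenases rose. These enzymes open the ring of myo-inositol to glucuronate, which feeds cell wall sugars and, as has been proposed, ascorbate. All 4 were tested and all 4 were higher in September, where 35.4% of all tested unigenes were higher, and 3 of them by at least 2-fold, as were 24.3% of all tested unigenes. Their summed level was 382.7 ± 13.3 CPM in September and 133 ± 16.0 CPM in August (SD, n = 3 each), a ratio of 2.88 in CPM and of 3.93 in FPKM, which divides counts by transcript length. MIOX1 (Unigene0072701) had 29.2, 19.5 and 11.6 CPM in September and 0.873, 0.371 and 0.445 CPM in August (log2 fold change 5.12, SE 0.42, adjusted p = 3.8e-06). MIOX5 (Unigene0026372) had 72.4, 73.1 and 85.9 CPM in September and 6.68, 6.82 and 5.27 CPM in August (log2 fold change 3.62, SE 0.12, adjusted p = 2.2e-08). The months were far apart for both, although the September libraries of MIOX1 varied among themselves by more than those of MIOX5.

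The remaining pair carries the rice gene symbol Os06g0561000. Unigene0022335 had 92.3, 103.3 and 111 CPM in September and 16.5, 20.2 and 16.8 CPM in August (log2 fold change 2.52, SE 0.10, adjusted p = 6.3e-08). Unigene0022336 had 183, 202 and 164 CPM in September and 99.1, 124 and 101 CPM in August (log2 fold change 0.76, SE 0.10, adjusted p = 8.7e-05). These and MIOX5 share a best hit in Picea sitchensis, so their reads may be divided between copies. Summed, the Os06g0561000 pair reached 1.19 on the log2 fold scale (adjusted p = 1.9e-06), a smaller rise than that of Unigene0022335 alone and in the same direction.

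Ascorbate synthesis did not move as a whole. In plants the L-galactose pathway runs from GDP-mannose through GDP-mannose epimerase (GME), GDP-L-galactose phosphorylase (VTC2 and VTC5, the committed step), a phosphatase (VTC4) and L-galactose dehydrogenase to L-galactono-1,4-lactone dehydrogenase. Of 12 phosphorylase unigenes 8 were tested, of which 5 were higher, none was lower and 3 did not pass. The changed share of 62.5% was near the 67.8% of all tested unigenes, of which 35.4% were higher. The phosphorylases had a summed level of 242 ± 8.60 CPM in September and 139 ± 4.31 CPM in August (SD, n = 3 each), a ratio of 1.74. VTC2 (Unigene0061187) had 69.9, 59.8 and 70.5 CPM in September and 28.6, 24.4 and 24.3 CPM in August (log2 fold change 1.37, SE 0.098, adjusted p = 1.5e-06). VTC2 (Unigene0061189), with the same best hit, had 54.0, 50.9 and 56.1 CPM in September and 22.6, 22.0 and 20.4 CPM in August (log2 fold change 1.31, SE 0.083, adjusted p = 7.2e-07). Summing the unigenes of that hit gave a log2 fold change of 1.35. The phosphorylase unigene with most counts (Unigene0061188, named after its values were seen) rose less, with 99.3 ± 3.02 CPM in September and 74.4 ± 2.29 CPM in August (log2 fold change 0.42, SE 0.060, adjusted p = 0.00016).

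The steps on either side of the phosphorylase went down or did not pass. GME-1 (Unigene0050692), which makes GDP-L-galactose, had 74.6, 70.8 and 76.5 CPM in September and 124, 132 and 107 CPM in August (log2 fold change -0.71, SE 0.082, adjusted p = 3.7e-05). L-galactose dehydrogenase (LGALDH, Unigene0058158) had 21.0, 21.5 and 22.9 CPM in September and 29.9, 26.3 and 28.3 CPM in August (log2 fold change -0.37, SE 0.095, adjusted p = 0.0059). For both, every September library was below every August library. The phosphatase VTC4 (Unigene0044835) stood at 37.7 ± 1.57 CPM in September and 34.3 ± 2.60 CPM in August (adjusted p = 0.18). The last enzyme, GLDH2 (Unigene0042255), stood at 16.9 ± 1.12 CPM in September and 16.2 ± 2.65 CPM in August (adjusted p = 0.73; SD, n = 3 each). Of 10 unigenes for L-gulonolactone oxidases, relatives of the last enzyme, 6 were tested and 1 was higher (16.7%, against 35.4% of all tested unigenes). The 2 tested unigenes under the ascorbate oxidase orthologue were higher, AAO (Unigene0068203) at 3.90 ± 0.529 CPM in September and 0.788 ± 0.466 CPM in August (adjusted p = 0.00079), and SKS1 (Unigene0024688), whose symbol belongs to the SKU5 family of wall proteins, at a log2 fold change of 1.09. The SKS1 call (adjusted p = 0.016) was lost without August library 1 (0.066), August library 3 (0.054) or September library 3 (0.060), by DESeq2 (0.13) and with no filter on low counts (0.10). Neither tested UDP-glucuronate 4-epimerase, which makes pectin precursors, passed.

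**Figure D3:**
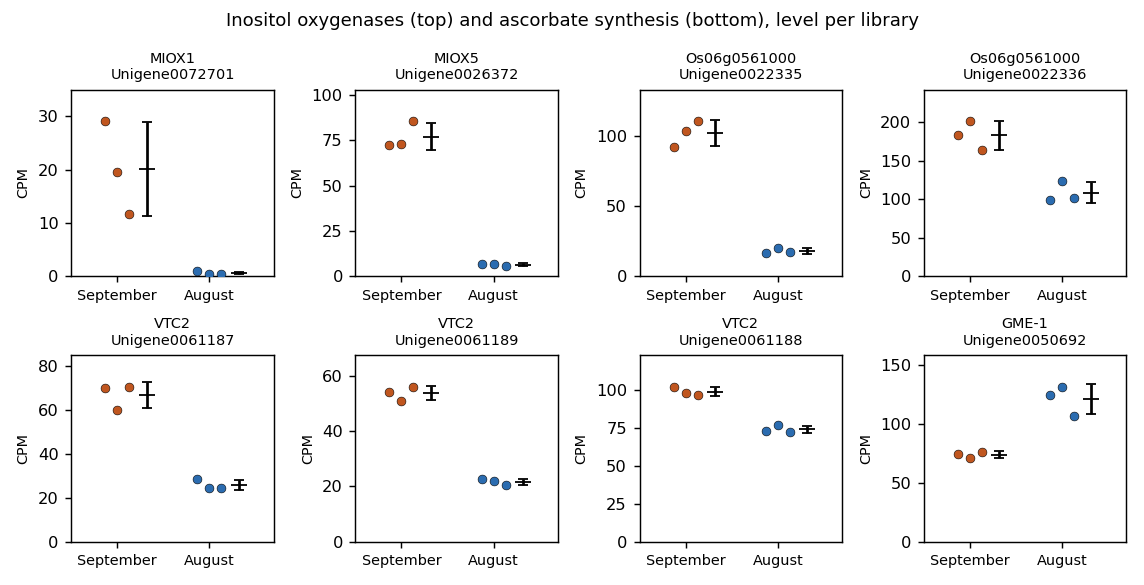
Level in CPM (vertical axes, each from 0) of the 4 inositol oxygenases (top) and of 3 VTC2 unigenes and GME-1 (bottom) in the 3 September libraries (left) and the 3 August libraries (right), with the mean and SD beside the points. The inositol oxygenases and VTC2 are higher in every September library, and GME-1 is lower in every September library.

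The most abundant unigenes filed under the ascorbate-glutathione cycle showed little or no change. Of 7 ascorbate peroxidase unigenes 6 were tested, 2 were higher, none was lower and 4 did not pass. The share higher was 33.3%, against 35.4% of all tested unigenes. The class summed to 776 ± 44.4 CPM in September and 740 ± 19.4 CPM in August (SD, n = 3 each), of which Unigene0045245 held 65.5%. APX4 (Unigene0045245, mean 372 FPKM), whose namesake in Arabidopsis is a chloroplast protein, had 537, 451 and 496 CPM in September and 491, 515 and 487 CPM in August (log2 fold change -0.01, SE 0.069, adjusted p = 0.91). Its role was read from its orthologue label, and whether it has peroxidase activity was not tested. APXT (Unigene0072063, 99.1 FPKM), named for the thylakoid-bound form, had 189, 178 and 167 CPM in September and 188, 171 and 171 CPM in August (log2 fold change 0.01, SE 0.066, adjusted p = 0.92). For both, the libraries of the months overlapped. APX1 (Unigene0071909), named for the cytosolic form, was higher, with 76.3, 84.9 and 78.9 CPM in September and 47.8, 52.3 and 42.6 CPM in August (log2 fold change 0.75, SE 0.086, adjusted p = 3.5e-05). A second APX1 unigene with the same best hit rose by more but was less abundant, and the sum of the unigenes of that hit and symbol had a log2 fold change of 0.80.

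The reductases that restore ascorbate and glutathione followed 2 patterns. DHAR1 (Unigene0073423, mean 244 FPKM), a dehydroascorbate reductase that its hit places in the transferase superfamily, had 382, 324 and 378 CPM in September and 361, 395 and 385 CPM in August (log2 fold change -0.08, SE 0.072, adjusted p = 0.38). DHAR3 (Unigene0001638), named after its values were seen, was at 110 ± 1.73 CPM in September and 96.1 ± 5.10 CPM in August (SD, n = 3 each; log2 fold change 0.19, adjusted p = 0.017). Its call was lost by DESeq2 (0.083), with no filter on low counts (0.12), without August library 2 (0.082) or 3 (0.097), and without September library 2 (0.055). Member monodehydroascorbate reductase unigenes split. MDAR2 (Unigene0005026) had 32.1, 24.3 and 27.1 CPM in September and 45.2, 50.04 and 53.3 CPM in August (log2 fold change -0.83, SE 0.11, adjusted p = 0.00011). AFRR (Unigene0050126) had 39.1, 28.0 and 35.9 CPM in September and 22.3, 23.2 and 25.2 CPM in August (log2 fold change 0.54, SE 0.13, adjusted p = 0.0036). The months did not overlap in either, and the directions were opposite.

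Glutathione reductase was split in the same way. GOR (Unigene0012685) had 48.2, 47.3 and 52.4 CPM in September and 70.2, 70.3 and 75.8 CPM in August (log2 fold change -0.55, SE 0.072, adjusted p = 8.4e-05). The more abundant GRC2 (Unigene0004656, mean 94.8 FPKM) had 238, 227 and 243 CPM in September and 213, 211 and 204 CPM in August (log2 fold change 0.18, SE 0.054, adjusted p = 0.015). Leaving out the third library of August (0.084) or of September (0.056) ended the GRC2 call, as did testing with no filter on low counts (0.13). Together the reductases summed to 285 ± 10.5 CPM in September and 281 ± 1.97 CPM in August (SD, n = 3 each).

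**Figure D4:**
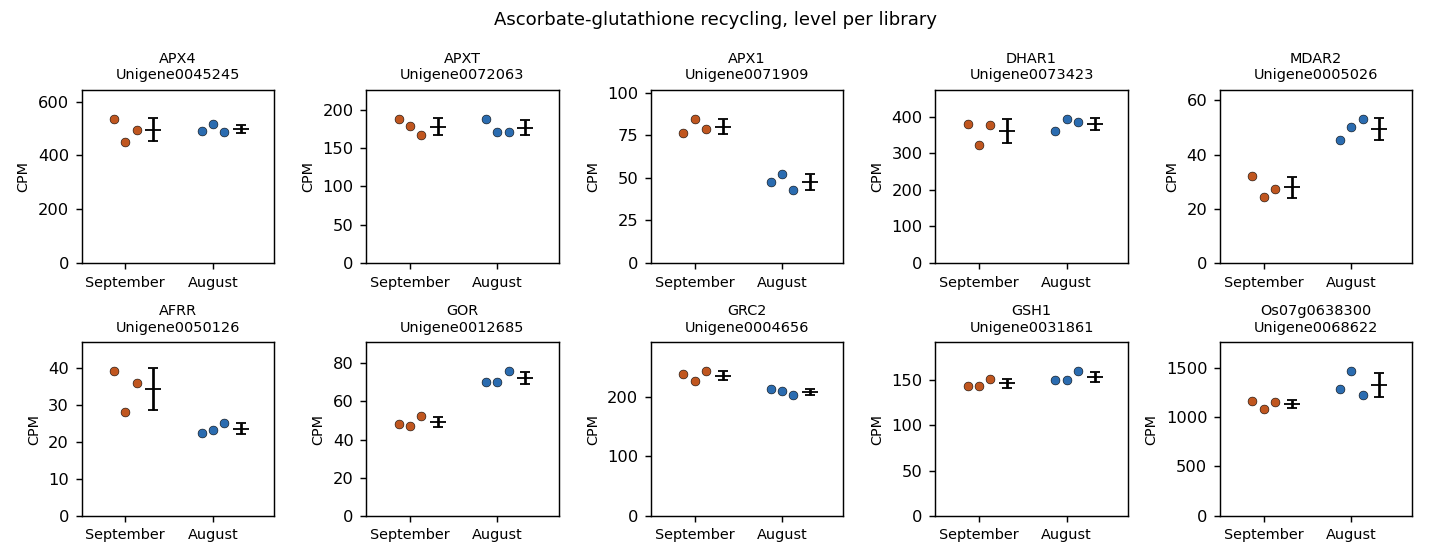
Level in CPM (vertical axes, each from 0) of 8 unigenes of the ascorbate-glutathione cycle, of GSH1 and of the 1-Cys peroxiredoxin Os07g0638300 in the 3 September libraries (left) and the 3 August libraries (right), with the mean and SD beside the points. APX4, APXT and DHAR1 overlap between months, MDAR2 and GOR are lower in every September library, and APX1, AFRR and GRC2 are higher in every September library.

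Among all peroxidases more unigenes were lower than higher. Counting ascorbate peroxidases, glutathione peroxidases and 1-Cys peroxiredoxins, 17 of 22 unigenes were tested, 4 were higher, 7 lower and 6 did not pass (41.2% lower, against 32.5% of all tested unigenes). The most abundant member of all was a 1-Cys peroxiredoxin (Unigene0068622, symbol Os07g0638300, mean 956 FPKM), of a family known as antioxidants of seed embryos. It had 1161, 1081 and 1152 CPM in September and 1284, 1462 and 1227 CPM in August (log2 fold change -0.23, SE 0.072, adjusted p = 0.017). The call was lost without the second September library (0.059). A minor peroxiredoxin, PRDX6 (Unigene0042130), had 8.65, 8.64 and 9.22 CPM in September and 23.0, 21.2 and 19.4 CPM in August (log2 fold change -1.26, SE 0.12, adjusted p = 1.0e-05). The September libraries of both lay below all August libraries.

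Glutathione peroxidases, which remove lipid and other peroxides, had 2 of 9 tested unigenes higher and 5 lower (35.4% and 32.5% of all tested unigenes), with a summed level of 215 ± 2.15 CPM in September and 249 ± 15.5 CPM in August (SD, n = 3 each). GPXMC1 (Unigene0036786), the most abundant, had 82.4, 79.3 and 81.3 CPM in September and 102.7, 120 and 110 CPM in August (log2 fold change -0.45, SE 0.069, adjusted p = 0.00023). GPXMC1 (Unigene0031021) had 40.8, 39.8 and 33.5 CPM in September and 61.1, 68.2 and 53.0 CPM in August (log2 fold change -0.67, SE 0.11, adjusted p = 0.00034). Another unigene of that symbol (Unigene0052043) rose, with 58.6, 65.9 and 66.2 CPM in September and 39.2, 41.1 and 39.5 CPM in August (log2 fold change 0.67, SE 0.075, adjusted p = 3.1e-05). These 3 have different best hits and do not overlap between months. The other higher unigene was GPXMC1 (Unigene0070852, log2 fold change 1.25, adjusted p = 0.027), named after its values were seen. Its call was lost by DESeq2 (0.15), with no filter on low counts (0.10) and with replicate number as a block (0.058). It was also lost without August library 1 (0.11) or 2 (0.092), and without September library 1 (0.079) or 2 (0.096).

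Glutathione synthesis did not change measurably at its first step, whereas breakdown enzymes moved in both directions. GSH1 (Unigene0031861), glutamate-cysteine ligase, the rate-limiting enzyme of glutathione synthesis, had 143, 144 and 152 CPM in September and 150, 150 and 159 CPM in August (log2 fold change -0.07, SE 0.057, adjusted p = 0.32). The gamma-glutamylcyclotransferases, which cleave glutathione inside the cell, had 2 of 4 unigenes higher and 1 lower (35.4% and 32.5% of all tested unigenes). The call of the minor GGCT2;1 (Unigene0071085, log2 fold change 1.29) was lost when unigenes of the same hit and symbol were summed (log2 fold change 0.22, adjusted p = 0.31). GGCT2;2 (Unigene0042446) had 49.2, 57.2 and 47.4 CPM in September and 23.1, 26.5 and 22.7 CPM in August (log2 fold change 1.09, SE 0.10, adjusted p = 8.6e-06). GGCT2;3 (Unigene0049040) had 3.95, 2.13 and 3.78 CPM in September and 9.17, 9.34 and 6.92 CPM in August (log2 fold change -1.38, SE 0.25, adjusted p = 0.00083). The summed cyclotransferase level was 62.1 ± 4.53 CPM in September and 39.1 ± 2.29 CPM in August (SD, n = 3 each), led by GGCT2;2.

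Gamma-glutamyltransferases, which start glutathione breakdown by taking off its glutamyl group, changed in opposite directions. GGT3 (Unigene0050588) had 10.5, 9.51 and 8.12 CPM in September and 2.62, 2.08 and 2.10 CPM in August (log2 fold change 2.04, SE 0.20, adjusted p = 1.3e-05). GGT2 (Unigene0072815), named after its values were seen, had 2.32, 3.23 and 2.68 CPM in September and 7.74, 5.93 and 7.94 CPM in August (log2 fold change -1.39, SE 0.22, adjusted p = 0.00031). The months did not overlap in either unigene.

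Other enzymes that KEGG files under glutathione have roles beyond it. The aminopeptidases, which trim peptides, fell, MPA1 (Unigene0038746) to 231 ± 7.53 CPM in September, against 281 ± 40.9 CPM in August, and a leucyl aminopeptidase (Unigene0026766) to 17.4 ± 1.58 CPM in September, against 30.1 ± 4.79 CPM in August (SD, n = 3 each). The MPA1 call (adjusted p = 0.020) was lost without the first September library (0.057), and that of the leucyl aminopeptidase gave 0.00040. The large subunit of ribonucleotide reductase (RNR1, Unigene0045829), which makes DNA precursors, was at 58.6 ± 0.747 CPM in September and 50.5 ± 2.97 CPM in August (SD, n = 3 each; log2 fold change 0.22, adjusted p = 0.020). That call was lost without August library 1 (0.11) or 3 (0.052), and without September library 1 (0.051) or 2 (0.058), by DESeq2 (0.12) and with no filter on low counts (0.11). Spermidine synthase did not pass.

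The abundant members had smaller fold changes than the rest. The 10 tested members with a mean of 50 FPKM or more had 1 higher, 4 lower and 5 not passing, with log2 fold changes from -0.71 to 0.18. Of all 1895 tested unigenes at that level 75.6% changed, against 5 of these 10. The other 80 had 34 higher and 19 lower, and 67.1% of all tested unigenes under 50 FPKM changed. The median size of the log2 fold change, without its sign, was 0.16 in the abundant members and 0.76 in the rest. Over all tested unigenes the same medians were 0.41 at 50 FPKM or more and 0.73 below it, so part of this contrast holds for the whole transcriptome. The limit of 50 FPKM was chosen after the values were seen.

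**Figure D5:**
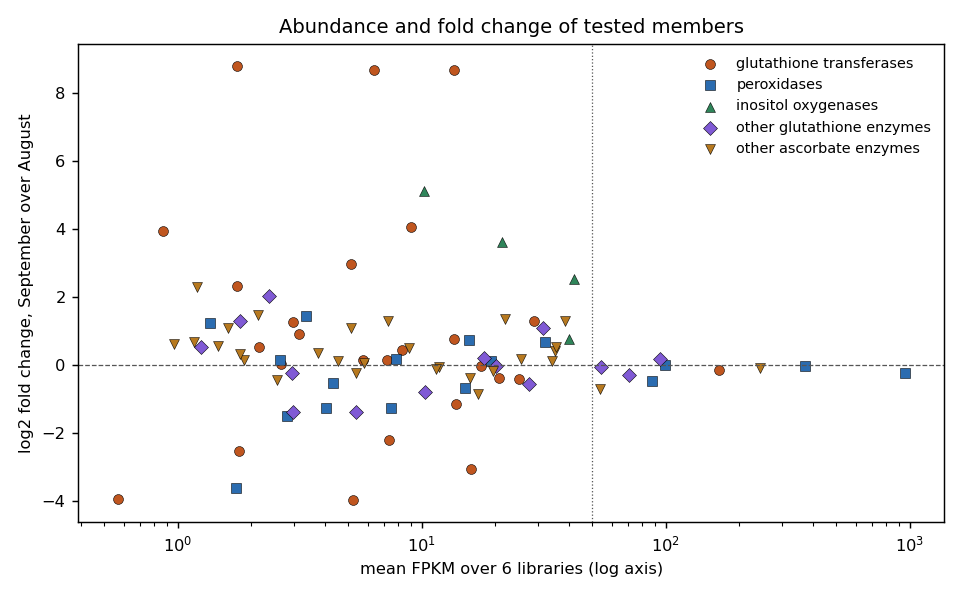
Mean FPKM over 6 libraries (horizontal log axis) against log2 fold change of September over August (vertical axis) for the 90 tested members, with 1 point per unigene and a shape and colour per enzyme class. The dotted line marks 50 FPKM, right of which all 10 members lie between -0.71 and 0.18. The 3 transferases near the top had 0 to 3 August counts.

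Some roles held members that moved in opposite directions. Over all tested unigenes 35.4% were higher and 32.5% were lower. Of 16 roles with at least 2 tested members, 6 had both a higher and a lower member, namely glutathione transferase, glutathione peroxidase, glutathione reductase, monodehydroascorbate reductase, gamma-glutamyltransferase and gamma-glutamylcyclotransferase. Of 13 best hits shared by at least 2 tested members, 4 had all of them higher and 1 had a higher and a lower member. In that opposed hit the higher member, GPXMC1 (Unigene0070852), lost its call in the alternatives given with the glutathione peroxidases. How often other gene families show this was not tested.

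Pathway genes outside the members were also counted. Of 116 unigenes with either pathway label that are not members, 40 were tested, and 14 were higher and 17 lower (77.5% changed, against 67.8% of all tested unigenes). Some fill the same roles. The unigenes named next were chosen after their values were seen. A further AFRR (Unigene0050127, best hit in Populus) was at 36.5 ± 4.61 CPM in September and 1.99 ± 0.0774 CPM in August. Under the same orthologue, MDAR5 (Unigene0002415, best hit in Vitis) was at 39.8 ± 3.13 CPM in September and 12.1 ± 0.717 CPM in August. Both rose, unlike the split among member monodehydroascorbate reductases. A cytosolic-type APX2 (Unigene0010728, best hit in Solanum) was at 118 ± 15.3 CPM in September and 45.3 ± 4.91 CPM in August. A further unigene under the inositol oxygenase orthologue that is no member, MIOX1 (Unigene0060300, best hit in Carpinus), had no count in September. It had 0.0624, 72.9 and 0.191 CPM in the August libraries, so nearly all of it was in 1 library, and it was not tested. Whether its reads come from the pine was not tested either. Glutathione synthetase (GSH2, Unigene0068317), the second step of glutathione synthesis, fell to 77.4 ± 6.65 CPM in September, against 114 ± 5.14 CPM in August (SD, n = 3 each). By name in the best hit or symbol, 5 superoxide dismutases were tested, with 3 higher and 2 lower, 3 catalases with 2 higher and 1 lower, 2 peroxiredoxins with 2 lower, 3 thioredoxins with 1 higher and 2 lower, 2 glutaredoxins with 2 lower, and 1 metallothionein, which was lower. All 16 thus changed, where 67.8% of all tested unigenes did, with 6 higher (35.4% of all) and 10 lower (32.5% of all). The catalase sum nevertheless fell, at 2753 to 3045 CPM in September and 3461 to 3876 CPM in August. Most of it was CAT2 (Unigene0034227), at 2828 ± 144 CPM in September and 3667 ± 209 CPM in August (SD, n = 3 each). The thioredoxin sum rose, at 79.9 to 86.3 CPM in September and 32.7 to 44.7 CPM in August. Unigenes whose hit reads unknown are missed by the search by name.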

How the data were processed

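RNA of 6 kernel libraries was sequenced, and no assembler or annotation tool is named in the sources used here. The tools named are fastp (read trimming) and RSEM (quantification), per the submitters' processing notes. The expected counts per unigene, and the FPKM values computed by the authors, were used as deposited, per the file headers. Of 390702 count values 8 were not whole and were rounded.

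Counts were tested in edgeR 4.0.16 (R 4.3.3) with TMM factors, filterByExpr by month (minimum count 10, minimum total 15), glmQLFit and glmQLFTest, with Benjamini-Hochberg adjustment at 0.05. The SE is the log2 fold change over the square root of F. CPM uses counts in tested unigenes with TMM factors. Levels of different genes are compared in FPKM. Intervals (95%) on low counts are exact and cover counting error only, with a floor of 3 counts over 3 libraries. On simulated counts, false calls were few with a trended spread and exceeded the nominal share when the spread varied per unigene, so calls near 0.05 are less secure.

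Named per class were the 4 most abundant tested members, the 3 largest passing rises and falls at 5 CPM or more, tested members at 0 in a month, and every tested member of classes of 8 or fewer. Members and lists were chosen with earlier results of these data known. Alternatives were DESeq2 1.42.0, other factors, no filter, a replicate block, summed unigenes, other member rules and leaving out each library.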

Additional observations from a re-analysis of the deposited data

How the results depend on the processing

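Against 58 members passing (35 higher, 23 lower), DESeq2 gave 32 higher and 24 lower, no filter 31 and 25, and summing unigenes of the same hit and symbol 30 and 23. Leaving out each library gave 31 to 36 higher and 21 to 24 lower, 55 to 60 in all. Admitting hits of any organism gave 41 higher and 29 lower, and admitting the excluded pathways 42 and 31. Over all tested unigenes, passing counts ran from 14184 to 19848. Of 468 alternative values of the 39 members named by rule, no passing value changed sign, 13 lost the call and 1 gained it, in 6 members. In 3 members that did not pass (GSTU19 Unigene0022265, APX4 and APXT), 9 values had the other sign, from -0.04 to 0.06, with adjusted p of 0.50 or more. The summed level of inositol oxygenases had a log2 ratio of 1.53 in CPM and 1.97 in FPKM, and 1.47 to 1.63 leaving out each library. FPKM gives the shorter unigenes more weight.

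With replicate number as a block, 34 members were higher and 24 lower (15428 of all unigenes passed), and GSTU19 (Unigene0022265) passed, at -0.15 (adjusted p = 0.034). Same-numbered libraries had correlations of deviations of 0.101, 0.0239 and 0.053, so the numbers were not taken to pair the samples, and not every library correlated best with its own number. Low counts limit the 27 untested members.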
